A study of Mus musculus with 15 samples.

Results

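The vacuolar proton pump (V-ATPase), the cathepsin proteases and the lysosome-associated membrane proteins (Lamp) were followed in the messenger RNA of mouse Purkinje cells (PCs), the large output neurons of the cerebellar cortex, over the first 3 weeks after birth. Members were chosen by name from the protein-coding genes of the count tables: symbols beginning with Atp6v or Atp6ap, Cts followed by 1 letter, and Lamp followed by 1 digit. This gave 48 genes of 38561 listed, namely 26 pump genes, 18 cathepsins and 4 Lamp genes. PCs had been cut by laser from cerebella of male mice, given by the labels as strain C56/BL6, at postnatal days 0, 4, 8, 14 and 21 (P0, P4, P8, P14 and P21), with 3 libraries per time point and 15 in all. The labels name no transgene and no treatment, so age was the only variable of the design. At P0 the PCs were taken as clusters and at later ages as single somata, so the youngest age and the way of capture cannot be told apart wherever a value turns on P0.

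The V-ATPase is a rotary pump that spends ATP in its soluble V1 sector to drive protons through its membrane-bound V0 sector, and so acidifies lysosomes, endosomes and synaptic vesicles. Cathepsins are proteases that mostly need this acid to mature and to cut, and Lamp1 and Lamp2 are heavily glycosylated proteins that line the lysosomal membrane. Neurons use the same pump to load neurotransmitters into vesicles, so that its messages in a neuron serve both organelles.

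The libraries held between 3409371 and 7814951 reads on genes. At P0 a further 25.3% to 31.0% of the aligned reads lay outside genes or were ambiguous. The share was 21.5% to 22.5% at P4, 22.8% to 24.7% at P8 and 18.2% to 20.7% at P14 and P21. It was thus highest at P0 and lowest at P14 and P21, and every P8 library lay above every P4 library. All 6 genes read as markers of PCs (Calb1, Pcp2, Pcp4, Itpr1, Ppp1r17 and Car8) rose with age, and their summed level went from 5443 ± 778 to 42686 ± 5147 CPM (reads scaled to a common library size, mean ± SD, n = 3) between P0 and P21. Markers of other cells moved as well. Those of oligodendrocytes rose in 5 of 5 cases, from a sum of 13.9 to 36.2 CPM at P0 to one of 394 to 842 CPM at P21. Those of Bergmann glia and astrocytes averaged 4700, 7210, 8797, 6116 and 3485 CPM at the 5 ages, with 2 of 7 rising and 2 falling. Both tested markers of the choroid plexus fell, from a summed 85.3 ± 29.2 to 18.9 ± 3.16 CPM between P0 and P21, 1 of 3 vascular markers fell (77.1 ± 44.2 to 23.6 ± 10.3 CPM), and 1 of 2 granule neuron markers rose (69.4 ± 17.9 to 121 ± 30.8 CPM). Microglial markers summed to between 0 and 25.5 CPM in every library, and of the 4 tested none passed the edgeR test in either direction, none had an unadjusted p under 0.05 and none was called by DESeq2 or limma-voom. The part of these cells, and of the reads outside genes, in the courses given here was not tested. In material pooled from many cells, fewer cells of a type and less RNA per cell cannot be told apart. The study's methods call the 3 libraries of an age biological replicates, and the labels do not tie them to animals; the p-values measure the spread between these libraries.

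A count is the number of reads on a gene, and a level is that number as RPKM, i.e. per kilobase of exon and scaled to a common library size by the trimmed mean of M values (TMM). Of the 48 members 33 had enough reads to be tested, namely 19 pump genes, 11 cathepsins and 3 Lamp genes. With day as a number, 14 of these 33 rose and 3 fell at an adjusted p below 0.05 (edgeR quasi-likelihood test, adjusted over all 14293 genes tested), where 12% of all genes tested rose and 14.5% fell. The median slope of the 33 was 0.040 log2 per day against -0.0089 for all genes, and 27 of 33 slopes (81.8%) lay above 0 against 44.2% of all genes. A test of any difference between the ages called 16 of 33, where 19.3% of all genes were called. It added Ctsl to the genes called by the day trend and left out Atp6v0a1 and Ctsf. Without the P0 libraries 10 members rose and 2 fell. Scaling by total counts in place of TMM moved P21 by -0.32 log2 relative to P0, after which 10 members rose and 5 fell, and rising genes made up 30.1% of all calls with day in place of 45.2%. The libraries of P14 and P21 all lay above those of P0 and P4 for 9 of the 33 members (8.14% of all genes) and all below them for 1 (7.23%).

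**Figure D1:**
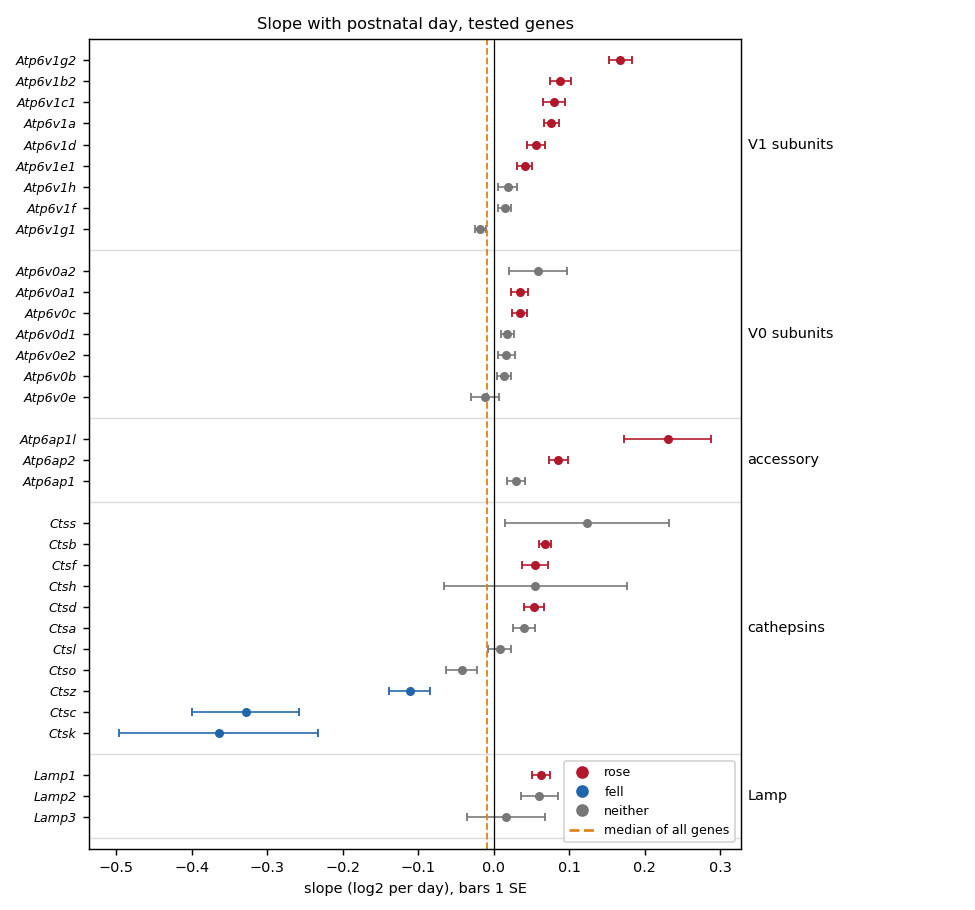
Slope of each of the 33 tested genes with postnatal day (horizontal axis, log2 per day, bars 1 SE) from the fit to all 15 libraries, grouped by V1 subunits, V0 subunits, accessory pump genes, cathepsins and Lamp genes. Red genes rose, blue genes fell and grey genes passed neither way; the dashed line is the median of all genes at -0.0089. Of the V1 genes 6 of 9 are red, of the V0 genes 2 of 7, and the 3 blue genes are all cathepsins.

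The 4 steps between neighbouring ages were also compared. From P0 to P4, 3 members were higher (Atp6ap1l, Atp6v1a and Ctsl; 1.61% of all genes) and 0 were lower (0.245%); without adjustment 14 were higher and 0 lower, and DESeq2 called 6 higher and limma-voom 4, with 0 lower in either. From P8 to P14 only Atp6v1g2 was called, and it was higher (1.33% of all genes higher, 1.37% lower); the unadjusted p was under 0.05 for 10, and DESeq2 called 4 and limma-voom 3. From P4 to P8 edgeR called 0 members (0.861% of all genes higher, 0.259% lower), with 3 under an unadjusted p of 0.05 and 0 by DESeq2 or limma-voom. From P14 to P21 edgeR called 0 (0.063% higher, 0.259% lower), with 2 under an unadjusted p of 0.05. DESeq2 called 1 at that step, which was Ctsl, and limma-voom 0. Of all 14293 genes, 2104, 1692, 1907 and 1004 had an unadjusted p under 0.05 at the 4 steps in order. From P4 to P8 and from P14 to P21 the unadjusted share of the 33 members was thus below that of all genes.

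Many lysosomal genes carry near their start a palindrome, TCACGTGA, whose core CACGTG is bound by TFEB and its relatives, transcription factors of the lysosome. The 300 bases around each start (250 before and 50 after) were searched in RefSeq's promoter table, build GRCm38.p6, which held 37 of the 48 members with 42 windows. CACGTG occurred in 9 of the 42 windows (21.4%) against 7.15% of all 32851 windows, TCACGTGA in 5 (11.9%) against 0.974%, and the 10-base palindrome with a further G and C at its ends in 0 against 0.326%. Each motif reads the same on both strands, and each longer one contains the shorter. The stretches that hold TCACGTGA are shown with that motif, and the bare CACGTG of Lamp1, in capitals, because TCACGTGA was the longest of the motifs found in any of the windows and Lamp1 held the most matches to the core. They lie at chr16:44139367-44139408 (Atp6v1a, minus strand), chr8:105566044-105566085 (Atp6v0d1, minus), chr17:26676381-26676422 (Atp6v0e, plus), chr2:164833743-164833801 (Ctsa, plus), chr7:142387902-142387943 (Ctsd, minus) and chr8:13159082-13159169 (Lamp1, plus).
Atp6v1a: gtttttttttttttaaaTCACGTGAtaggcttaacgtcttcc
Atp6v0d1: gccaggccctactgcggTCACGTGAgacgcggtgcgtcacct
Atp6v0e: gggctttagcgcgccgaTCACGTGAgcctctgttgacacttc
Ctsa: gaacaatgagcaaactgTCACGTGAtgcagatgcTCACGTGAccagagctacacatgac
Ctsd: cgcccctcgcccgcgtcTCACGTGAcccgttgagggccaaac
Lamp1: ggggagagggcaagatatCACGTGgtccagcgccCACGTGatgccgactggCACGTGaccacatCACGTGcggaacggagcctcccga

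Ctsa carried TCACGTGA at 2 places, and Lamp1 carried CACGTG at 4 places within 88 bases. CACGTG was also found in the windows of Atp6v0b, Ctsf and Ctsl. Of the 9 tested members with CACGTG in the window, 4 rose with age (Atp6v1a, Ctsd, Ctsf and Lamp1), and of the 16 tested members whose windows lacked it, 6 rose. Having the motif and rising with age were therefore not the same set, and a match in these letters is a description of the window only. None of the 3 tested genes of the TFEB family (Tfeb, Tfe3 and Mitf) passed the edgeR test with day, none had an unadjusted p under 0.05, DESeq2 called 0 and limma-voom 1. That gene was Mitf, called higher (limma-voom adjusted p = 0.0288). Tfeb had only 149 reads and Mitf 255, each in 9 libraries, so for these genes a trend could easily be missed.

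Most of the tested genes of the soluble V1 sector rose, where 12% of all genes rose and 14.5% fell. Of its 13 genes 9 were tested, 6 rose with age and 0 fell, and their summed level went from 1594 ± 302 CPM at P0 to 2073 ± 172 for P4, then 2276 ± 68.8 at P8, and ended at 3251 ± 197 for P14 and 3647 ± 197 for P21. The gene with the steepest slope among them was Atp6v1g2 (ENSMUSG00000024403, chr17:35233660-35238767, GRCm38), which encodes the form of the G subunit, a part of the stalk joining V1 to V0, that is known from neurons. Its levels in the 3 libraries were 21.5, 36.6 and 44.3 at P0, 43.0, 101 and 78.2 at P4, 79.4, 101 and 94.8 at P8, 237, 272 and 284 at P14, and 333, 420 and 389 at P21. The lowest P14 library thus stood above the highest P8 library, and every P21 library above every P14 library. The mean level at P21 was 11.2-fold that at P0, with a slope of 0.17 ± 0.015 log2 per day (SE; edgeR adjusted p = 1.64e-07), and the step from P8 to P14 was 1.52 log2 (edgeR adjusted p = 0.00699).

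Atp6v1g1 (ENSMUSG00000039105), the form of the same subunit that is made in most tissues, started high and did not follow. Its levels were 303, 256 and 277 at P0, 296, 291 and 261 at P4, 240, 242 and 219 at P8, 197, 215 and 238 at P14, and 192, 264 and 219 at P21. P0 and P21 overlapped, and the slope of -0.018 ± 0.0076 log2 per day did not pass (edgeR adjusted p = 0.0897), although DESeq2 (adjusted p = 0.0412) and scaling by total counts (edgeR adjusted p = 0.00209) called it lower. The third form, Atp6v1g3, had no read in any library. The share of Atp6v1g2 in the summed level of the G subunit genes was therefore 11.0% ± 3.82 at P0 and 20.5% ± 6.90 at P4, then 28.2% ± 2.90 at P8, and came to 55.0% ± 0.762 for P14 and 62.9% ± 1.34 for P21 (SD, n = 3). By reads, not scaled to exon length, its mean share was 21.3% at P0 and 78.9% at P21. At P8 no library was above 30.2% and at P14 none was below 54.5%. The ratio of Atp6v1g2 to Atp6v1g1, which is free of library scaling, was 0.125 ± 0.0473 at P0 and 1.70 ± 0.0956 at P21. Atp6v1g2 shares exon sequence with Nfkbil1 on the other strand, which had 169 reads over all libraries against 32755 for Atp6v1g2.

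**Figure D2:**
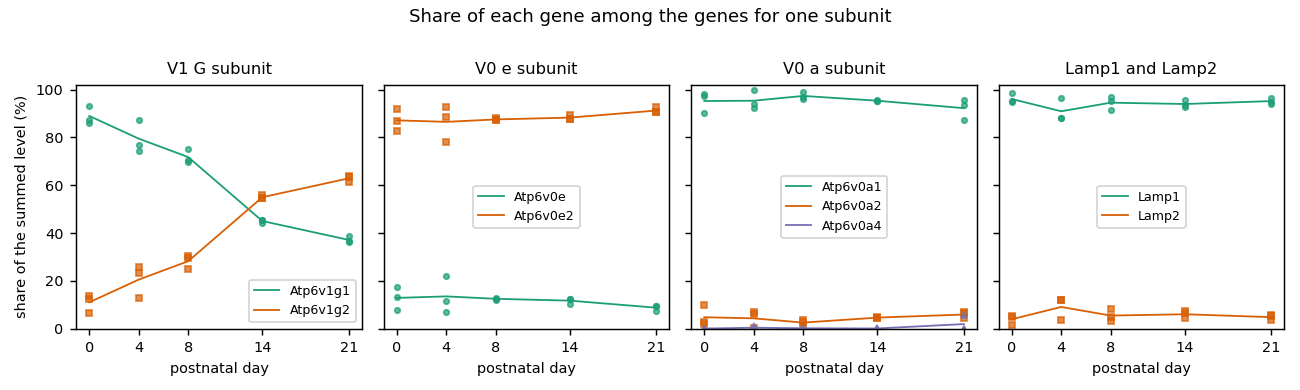
Share (vertical axis, percent) of each gene in the summed level of the genes for 1 subunit at each postnatal day, one mark per library and a line through the means of 3 libraries. In the first panel the share of Atp6v1g2 goes from 11.0% at P0 to 62.9% at P21 and passes that of Atp6v1g1 between P8 and P14, while Atp6v0e2, Atp6v0a1 and Lamp1 keep means of 86.5% or more.

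Both genes of the catalytic ring of V1 rose. Atp6v1a, the A subunit that splits ATP, had levels of 35.9, 25.7 and 29.4 at P0, 49.7, 59.0 and 47.5 at P4, 60.7, 52.0 and 62.3 at P8, 82.5, 87.4 and 95.2 at P14, and 96.0, 100 and 94.5 at P21. Every library of P4 lay above every library of P0, and that step was 0.78 log2 (edgeR adjusted p = 0.0213). Over the whole course Atp6v1a rose 3.20-fold, with a slope of 0.076 ± 0.0098 log2 per day (edgeR adjusted p = 1.19e-05). Atp6v1b2, the B subunit of brain with which A alternates in the ring, went from 22.1, 18.2 and 11.7 at P0 to 60.3, 59.8 and 70.1 at P21, or 3.66-fold (slope 0.088 ± 0.014, edgeR adjusted p = 9.85e-05). The ratio of Atp6v1b2 to Atp6v1a was 0.573 ± 0.158 at P0 and 0.656 ± 0.0764 at P21, a difference smaller than the spread at P0. The kidney form Atp6v1b1 had 25 reads in 5 libraries and made up at most 0.864% of the B level in any library.

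The other V1 genes that rose form the stalks and the regulatory arm. Atp6v1c1, the C subunit that joins and leaves as the pump is assembled, rose 2.66-fold (slope 0.079 ± 0.015, edgeR adjusted p = 0.000429), from 7.54 to 17.6 at P0 to 35.6 to 39.1 at P14 and 27.8 to 38.5 at P21. Atp6v1d, part of the central rotor, had mean levels of 31.9 at P0, 72.4 at P14 and 61.8 at P21 (slope 0.056 ± 0.012, edgeR adjusted p = 0.00148). Both had their highest mean at P14, yet neither step from P14 to P21 passed the test. Atp6v1e1, of the peripheral stalk, rose 1.97-fold from 49.6 ± 14.5 to 97.8 ± 9.45 (slope 0.041 ± 0.010, edgeR adjusted p = 0.00552), and its call was lost without P0 (edgeR adjusted p = 0.0508) and with scaling by total counts (edgeR adjusted p = 0.0892). Atp6v1c2 and Atp6v1e2, the second genes for C and E, had no read in any library. Atp6v1f and Atp6v1h passed neither way in edgeR. Atp6v1f had the highest level of all members at each of the 5 ages, with means of 307, 414, 354, 376 and 423. At P0 its spread took in the mean of Atp6v1g1 (307 ± 57.1 against 278 ± 23.6) and at P21 that of Atp6v1g2 (423 ± 59.0 against 381 ± 44.3), so the order within each pair was not resolved. Atp6v1h, which can hold a free V1 inactive, stayed between 11.1 and 25.3 in all libraries.

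In the membrane sector V0 fewer of the tested genes were called, where again 12% of all genes rose and 14.5% fell. Of the 9 V0 genes 7 were tested, 2 rose and 0 fell, and their summed level was 1713 ± 16.8 CPM at P0 and 2464 ± 112 at P4, then 2037 ± 117 at P8, and ended at 2589 ± 156 for P14 and 2599 ± 424 for P21. The V1 sum includes Atp6v1g2, whose mean level went from 34.1 RPKM at P0 to 381 RPKM at P21. With 2510 bases of exon its CPM are larger than its RPKM, so these values cannot be set directly against the sums. A difference between the sectors was not tested. For the pump genes of both sectors and the accessory ones together, 0 of 19 fell, beside 14.5% of all genes. Without adjustment 1 fell at a p under 0.05 in edgeR, and DESeq2 called 1 lower and limma-voom 0. Atp6v0c, the proteolipid that forms most of the turning ring, had levels of 163, 159 and 117 at P0, 215, 260 and 229 at P4, 141, 172 and 186 at P8, 239, 256 and 210 at P14, and 219, 274 and 332 at P21. The P4 libraries were thus above those of P0 and of P8, and the whole course rose 1.88-fold (slope 0.034 ± 0.011, edgeR adjusted p = 0.0218). Atp6v0a1, the form of the large a subunit found at synapses, rose from 29.9 ± 4.18 to 52.6 ± 13.2 (slope 0.034 ± 0.012, edgeR adjusted p = 0.0346). Neither call was kept with scaling by total counts (edgeR adjusted p = 0.190 and 0.226) or without P0 (0.192 and 0.151). Each also depended on single libraries. Without P21 replicate 3 the edgeR adjusted p was 0.0808 for Atp6v0c and 0.113 for Atp6v0a1, without P0 replicate 3 it was 0.0570 and 0.0747, and Atp6v0a1 was lost as well without P0 replicate 1 (0.0638), P4 replicate 1 (0.0513) or P21 replicate 2 (0.0883).

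Where a V0 subunit has several genes, the same one led at every age. Atp6v0a1 made up 95.3% ± 4.37 of the summed a level at P0 and 92.3% ± 4.25 at P21. Atp6v0a2, with levels from 0.038 to 3.89, held 4.74% ± 4.37 at P0 and 5.87% ± 1.35 at P21, and its slope of 0.058 ± 0.038 passed in limma-voom (adjusted p = 0.0447) and not in edgeR (adjusted p = 0.293). Atp6v0a4, the kidney form, had 46 reads in 4 libraries. Of these 36 came from P21 replicate 1, where Atp6v0a4 made up 5.60% of the a level. Its exons overlap those of D630045J12Rik on the same strand, which had 3662 reads, so these genes could share reads. Tcirg1, the a subunit of osteoclasts, carries another name and was not counted in these shares; its mean level was between 0.266 and 2.91. Atp6v0e2, the brain form of the small e subunit, held 87.2% ± 4.77 at P0 and 91.3% ± 1.30 at P21 beside Atp6v0e, whose mean level was 22.9 at P0 and 20.1 at P21 (slope -0.011 ± 0.018, edgeR adjusted p = 0.703). Atp6v0d1 was the only d gene with reads, since Atp6v0d2 had none. Atp6v0b, Atp6v0d1 and Atp6v0e2 had higher means at P21 than at P0 by 1.27-fold, 1.32-fold and 1.38-fold, with a slope of Atp6v0b that turned to -0.0023 with scaling by total counts, and none of the 3 passed the test (edgeR adjusted p = 0.306, 0.162 and 0.303). The ratio of the V1 gene Atp6v1a to the V0 gene Atp6v0d1 was 0.373 ± 0.116 at P0 and 0.488 ± 0.0671 at P4, then 0.620 ± 0.153 at P8, and came to 0.726 ± 0.109 for P14 and 0.876 ± 0.0365 for P21, and no P21 library overlapped with P0. This pair does not stand for the sectors. Between P0 and P21 the V1 genes Atp6v1f, Atp6v1h and Atp6v1g1 changed 1.38-fold, 1.12-fold and 0.809-fold, while 6 of 9 tested V1 genes rose. The V0 genes Atp6v0c and Atp6v0a1 changed 1.88-fold and 1.76-fold.

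**Figure D3:**
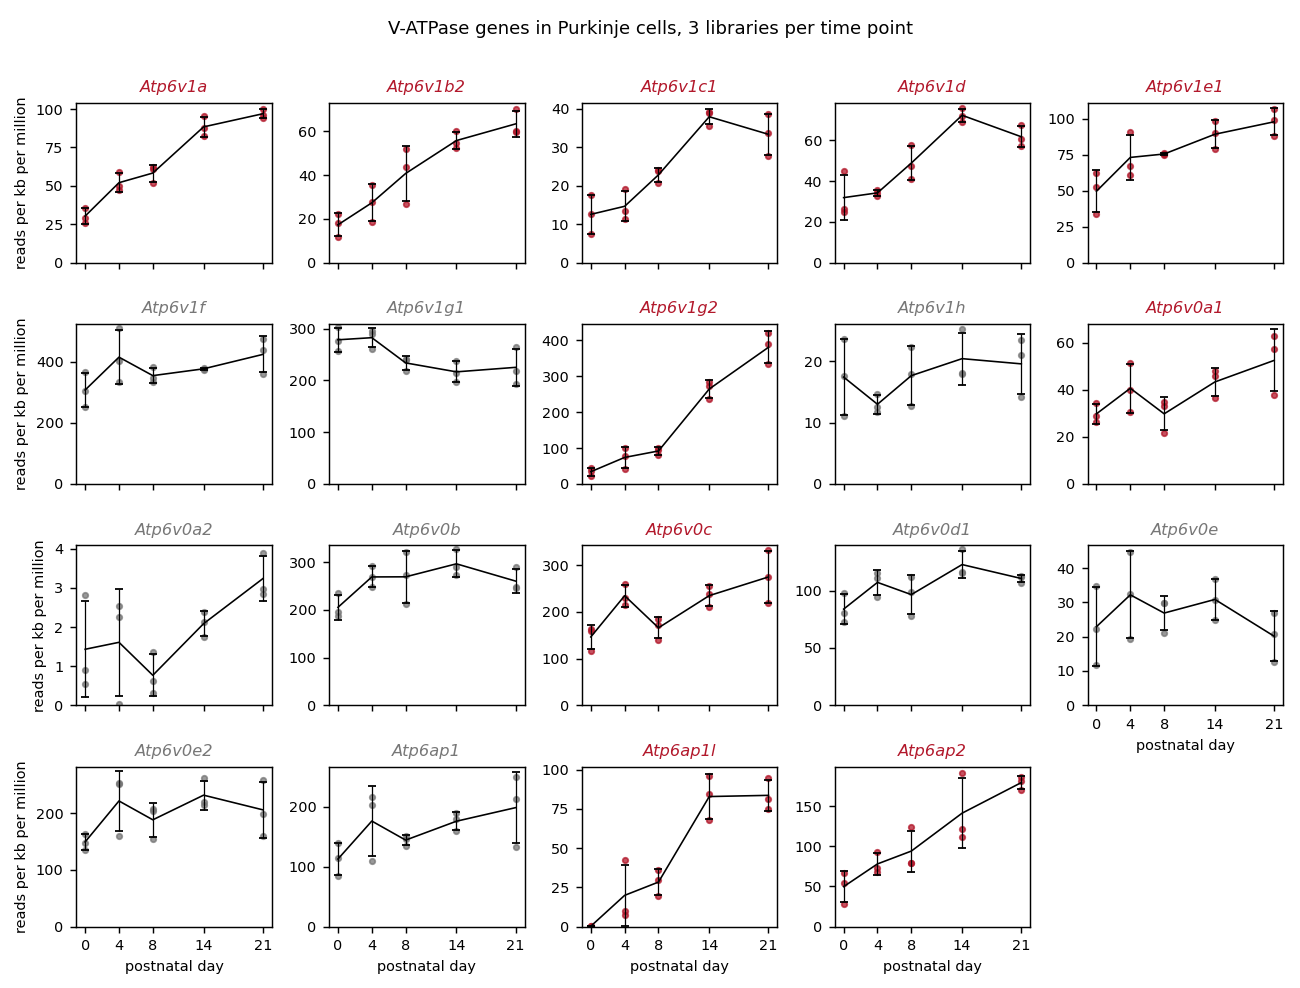
Level (vertical axis, RPKM, drawn from 0) of the 19 tested pump genes against postnatal day, one point per library, with the mean and SD of 3 libraries in black. Gene names in red rose with day. Atp6v1g2 goes from a mean of 34.1 to 381 while Atp6v1g1 goes from 278 to 225, and Atp6ap1l goes from 0.208 at P0 to 83.6 at P21.

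The accessory proteins of the pump had 3 genes, all tested, and 2 rose, where 12% of all genes rose. Atp6ap2, which helps to assemble the pump and is also known as the prorenin receptor, had levels of 28.2, 54.3 and 66.7 at P0, 73.1, 67.9 and 93.3 at P4, 79.1, 124 and 79.5 at P8, 112, 121 and 191 at P14, and 182, 186 and 170 at P21. Each P4 library lay above each P0 library, and the rise over the course was 3.61-fold (slope 0.086 ± 0.013, edgeR adjusted p = 5.17e-05). Atp6ap1l (ENSMUSG00000078958, chr13:90883433-90905355, GRCm38), which encodes a protein resembling the accessory subunit Atp6ap1, was close to absent at birth. Its counts at P0 were 2, 2 and 0, and its levels were 42.1, 10.1 and 7.38 at P4, 36.0, 19.6 and 29.4 at P8, 84.2, 96.2 and 68.0 at P14, and 94.4, 81.5 and 74.8 at P21. The summed reads of P21 were 387-fold those of P0 after scaling, with a 95% interval of 151 to 1424 (exact binomial, counting error only), and those of P4 were 79.0-fold (30.6 to 291). The step from P0 to P4 passed (edgeR adjusted p = 0.000452), as did the slope of 0.23 ± 0.058 log2 per day (edgeR adjusted p = 0.00561), and the slope also passed without P0. Atp6ap1 itself had a mean of 113 ± 27.3 at P0 and 198 ± 59.6 at P21, which did not pass in edgeR (slope 0.029, adjusted p = 0.0863) and passed in limma-voom (adjusted p = 0.0469). The last pump gene by name, Atp6v1fnb, is a neighbour of Atp6v1f rather than a subunit, and had no read.

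Cathepsins were called in both directions. Of 18 genes 11 were tested, 3 rose (Ctsb, Ctsd and Ctsf) and 3 fell (Ctsc, Ctsk and Ctsz). This was 27.3% each way, where 12% of all genes rose and 14.5% fell. The calls of Ctsd, Ctsf, Ctsk and Ctsz were each lost in some of the other fits, as given below. The summed level of the cathepsins was 777 ± 76.9 CPM at P0 and 969 ± 96.0 at P4, then 991 ± 144 at P8, and ended at 1364 ± 37.4 for P14 and 1468 ± 297 for P21. Ctsb, a cysteine protease of nearly all lysosomes, had levels of 52.3, 51.7 and 55.2 at P0, 61.6, 76.3 and 74.7 at P4, 66.0, 84.7 and 83.1 at P8, 114, 113 and 117 at P14, and 106, 150 and 170 at P21. No library of P14 or P21 reached down to those of P8 or before. The rise was 2.67-fold, with a slope of 0.067 ± 0.0080 log2 per day (edgeR adjusted p = 4.83e-06). Ctsd, the main aspartic protease of the lysosome, went from 35.5, 62.6 and 61.0 at P0 through 65.6, 61.0 and 86.3 at P4, 52.2, 68.8 and 111 at P8 and 130, 134 and 84.8 at P14 to 112, 105 and 112 at P21. Its P8 and P14 libraries overlapped, and the rise was 2.07-fold (slope 0.053 ± 0.013, edgeR adjusted p = 0.00497), not called without P0 (edgeR adjusted p = 0.0514). The ratio of Ctsb to Ctsd was 1.07 ± 0.354 at P0 and 1.29 ± 0.310 at P21, and the 2 ages overlapped.

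Ctsf, another cysteine protease, was lower and rose from 3.28 to 12.3 at P0 to 10.2 to 18.1 at P21 (slope 0.055 ± 0.017, edgeR adjusted p = 0.0257). The test of any difference between ages did not call it (edgeR adjusted p = 0.119), and the trend was lost with scaling by total counts (edgeR adjusted p = 0.112), without P0 replicate 2 (0.0547) or without P21 replicate 2 (0.0878). Ctsl, a cysteine protease of broad specificity, was called between the ages and not in the trend with day. Its levels were 13.3, 16.5 and 15.6 at P0, 26.0, 25.6 and 30.6 at P4, 25.7, 22.9 and 25.0 at P8, 31.5, 28.8 and 32.2 at P14, and 18.9, 16.1 and 19.7 at P21. P0 and P21 overlapped, and all 9 libraries of the ages between lay above both. The ages differed (edgeR adjusted p = 0.00244) and the step from P0 to P4 was 0.86 log2 (edgeR adjusted p = 0.0218), but the slope with day was 0.0079 ± 0.015 (edgeR adjusted p = 0.757). The step from P14 to P21 was -0.76 log2 and passed in DESeq2 alone (edgeR adjusted p = 0.122).

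Ctsz, a carboxypeptidase, was at 41.0, 57.1 and 57.3 at P0, 32.3, 13.3 and 25.0 at P4, 13.3, 25.2 and 25.8 at P8, 9.64, 5.28 and 13.9 at P14, and 1.62, 7.56 and 20.4 at P21. P0 stood above all other libraries, and the P21 libraries spread widely. The mean fell 5.26-fold (slope -0.11 ± 0.027 log2 per day, edgeR adjusted p = 0.00400), and without P0 the slope of -0.082 did not pass (edgeR adjusted p = 0.136). Its exons overlap those of Nelfcd on the other strand, which had 4624 reads against 2619 for Ctsz, and the setting for strand in the counting was not given in the sources used here. At P0 the means of Ctsb (53.1), Ctsd (53.0) and Ctsz (51.8) lay within each other's spread, whereas at P21 they were 142, 110 and 9.85.

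Ctsc, also called dipeptidyl peptidase 1, and Ctsk, the collagen-cutting protease of osteoclasts, were rare messages. Ctsc was at 2.22, 2.85 and 2.33 at P0, 0.549, 2.24 and 0.888 at P4, 0.0687, 0.972 and 1.97 at P8, 0.503, 0.0655 and 0.0986 at P14, and had no read at P21. Against a floor of 3 reads per library, P21 was at least 20.4-fold lower than P0, and the slope passed (edgeR adjusted p = 0.00176). Ctsk was read mainly at P4 (8.27, 2.53 and 10.2) and P8 (5.94, 2.61 and 0.944), in 1 library of P0 (2.44), in no library of P14 and with 1 read at P21, and its slope was only just called (edgeR adjusted p = 0.0483). That call was lost in limma-voom (adjusted p = 0.228), without the filter on low counts (edgeR adjusted p = 0.0522) and on leaving out any 1 of the libraries of P14 or P21 (0.0786 to 0.117), of P4 (0.0550 to 0.0939) or of 2 libraries of P8, replicates 2 and 3 (0.0544 and 0.0578).

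The remaining cathepsins did not pass the edgeR test with day. Ctss, a cysteine protease known from microglia and other antigen-presenting cells, had 1 read at P0 and levels of 0, 0 and 3.54 at P4, 3.67, 9.29 and 6.18 at P8, 1.88, 3.50 and 0.141 at P14, and 0.490, 2.01 and 9.40 at P21 (slope 0.12 ± 0.11, edgeR adjusted p = 0.446). Microglial markers summed to 0 to 7.99 CPM at P0, 0.511 to 25.5 at P4, 19.6 to 22.4 at P8, 6.58 to 25.1 at P14 and 1.33 to 5.66 in the P21 libraries. Their part in the levels of Ctss was not tested. Ctsh, an aminopeptidase, had a level of at most 2.04. Ctsa, a carboxypeptidase that also shields other lysosomal enzymes, had means of 13.7 ± 1.35 at P0 and 26.8 ± 15.9 at P21, with 44.3 in P21 replicate 3 (slope 0.040 ± 0.015, edgeR adjusted p = 0.0544), and DESeq2 called it higher (adjusted p = 0.0365). Ctso went from 7.72 ± 2.02 to 3.64 ± 2.0 (slope -0.043 ± 0.020, edgeR adjusted p = 0.136), and was called lower with scaling by total counts (edgeR adjusted p = 0.0417). Ctse, Ctsg, Ctsj, Ctsm, Ctsq and Ctsr had no read in any library, and Ctsw had 35 reads in 4 libraries.

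**Figure D4:**
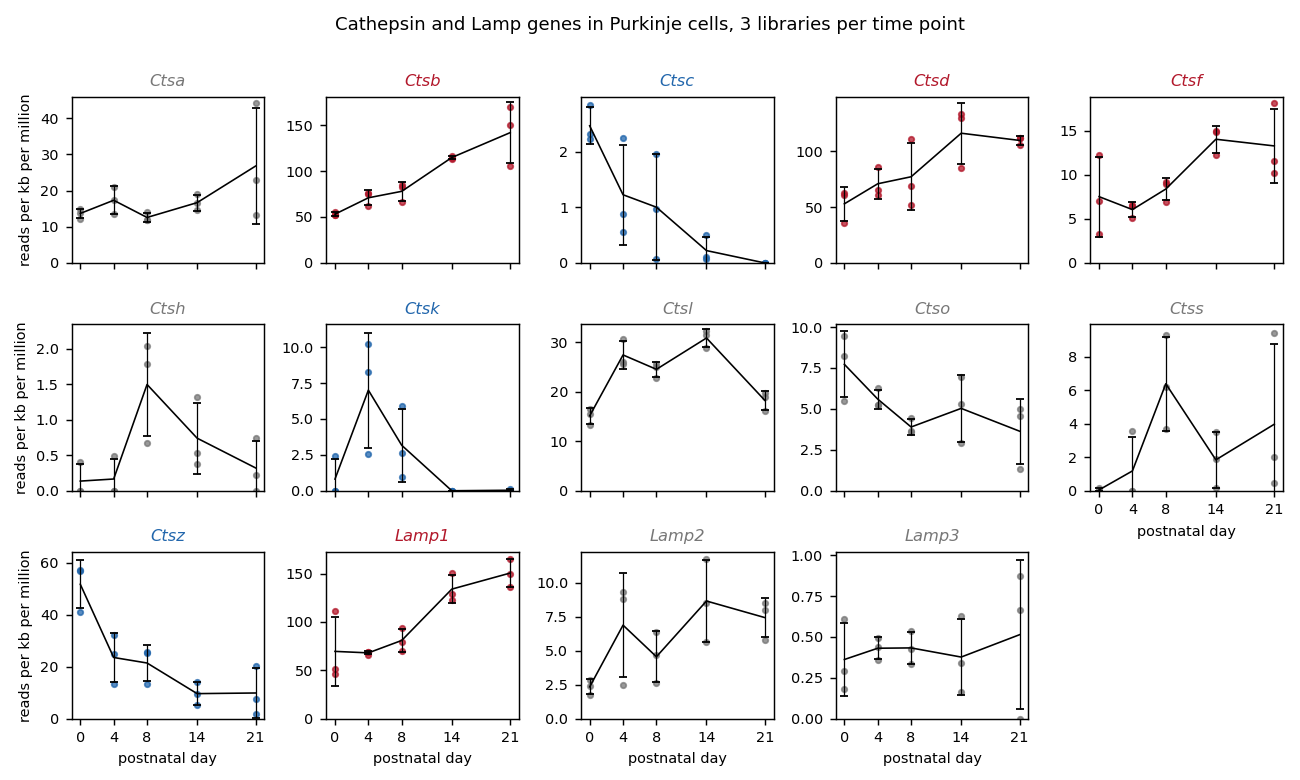
Level (vertical axis, RPKM, drawn from 0) of the 11 tested cathepsins and 3 tested Lamp genes against postnatal day, one point per library, with the mean and SD of 3 libraries in black. Names in red rose with day and names in blue fell. Ctsb and Lamp1 climb to means of 142 and 151 at P21, Ctsz goes down from 51.8 to 9.85, and Ctsl is highest at P14 (30.8) and back at 18.2 at P21.

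Among the Lamp genes 1 of 3 tested rose, where 12% of all genes rose. Lamp1 had levels of 111, 46.2 and 51.5 at P0, 66.2, 68.5 and 69.2 at P4, 93.3, 79.2 and 69.9 at P8, 128, 123 and 150 at P14, and 136, 166 and 150 at P21. P0 replicate 1 stood above every P8 library, and even so no P14 or P21 library overlapped with the earlier ages. The mean rose 2.17-fold, with a slope of 0.062 ± 0.012 log2 per day (edgeR adjusted p = 0.000487). Lamp2, the receptor of chaperone-mediated autophagy in 1 of its splice forms, was far lower, at 1.76, 2.37 and 2.85 at P0, 8.80, 2.47 and 9.32 at P4, 4.64, 2.62 and 6.37 at P8, 5.66, 8.53 and 11.7 at P14, and 8.47, 5.79 and 8.0 at P21. Every P21 library lay above every P0 library, but the slope of 0.060 ± 0.025 log2 per day did not pass (edgeR adjusted p = 0.0846), while limma-voom called it (adjusted p = 0.0305). Lamp2 was 3.90% ± 2.03 of the summed level of Lamp1 and Lamp2 at P0 and 4.77% ± 1.26 at P21; of their reads, not scaled to the long exons of Lamp2, it was 12.5% and 15.1%. Lamp3, known from dendritic cells, had a level of at most 0.874 (slope 0.017 ± 0.052, edgeR adjusted p = 0.853). Lamp5, a Lamp of neurons, had 83 reads, all of them in P4 replicate 3.

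Other genes of the lysosome were read from a list of 77, of which 74 were tested. With day 16 of 74 rose and 4 fell (Cd63, Gnptab, Ids and Pla2g15), a rising share of 21.6% beside the 12% of all genes and a falling share of 5.41% beside 14.5%. Among soluble hydrolases 4 of 31 rose (12.9%) and 2 fell (6.45%), so that the rising share was near that of all genes. Those that rose included Tpp1 (slope 0.070 ± 0.015) and Ppt1 (0.065 ± 0.012), enzymes whose loss causes neuronal ceroid lipofuscinosis. Ppt1 went from a mean of 15.5 at P0 to 47.4 at P21. Ids, which trims heparan and dermatan sulfate, went from 20.6 to 8.20 (slope -0.069 ± 0.015, edgeR adjusted p = 0.00223) and was not called without P0 (edgeR adjusted p = 0.0567). Pla2g15, a lysosomal phospholipase, went from 5.72 to 1.03 (edgeR adjusted p = 0.0174). That call was lost in limma-voom (adjusted p = 0.0840) and without P21 replicate 1 (edgeR adjusted p = 0.0568) or 2 (0.0585). The test between ages did not call Pla2g15 (edgeR adjusted p = 0.0893).

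Of 16 enzyme activators and membrane proteins 2 rose (12.5%) and 1 fell (6.25%), where 12% of all genes rose and 14.5% fell. The rising share was thus near that of all genes, and 8 of the 16 slopes lay above 0. Psap, the precursor of the saposins that present lipids to hydrolases, rose 2.71-fold from 59.2 to 80.8 at P0 to 142 to 236 at P21, without overlap of early and late ages (slope 0.072 ± 0.010, edgeR adjusted p = 3.67e-05). Clcn7, the chloride and proton exchanger of the lysosome, rose from a mean of 3.48 to one of 11.3 (edgeR adjusted p = 0.0265). It was not called without P0 replicate 2 (edgeR adjusted p = 0.0587), without P21 replicate 2 (0.119) or with scaling by total counts (0.0895). The test between ages did not call it either (edgeR adjusted p = 0.235). Cd63, a tetraspanin of late endosomes, had means of 27.7, 53.4, 43.6, 23.2 and 16.9 at the 5 ages, so that it was higher at P4 than at P0 before it fell (slope -0.063 ± 0.018, edgeR adjusted p = 0.0119; without P21 replicate 2, 0.0607). Summed Bergmann glia and astrocyte markers averaged 4700, 7210, 8797, 6116 and 3485 CPM at the same ages. At P14 this sum was above that of P0, whereas Cd63 was below its P0 mean. The part of these cells in the level of Cd63 was not tested.

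Of 10 pump genes under other names 4 rose, and the 3 steepest were Ncoa7 (5.73-fold, slope 0.10 ± 0.021, edgeR adjusted p = 0.00139), Oxr1 (3.91-fold, slope 0.076 ± 0.019, edgeR adjusted p = 0.00445) and Dmxl1 (2.98-fold, slope 0.076 ± 0.015, edgeR adjusted p = 0.000861). Ncoa7 and Oxr1 carry a domain that binds V1, and Dmxl1 belongs to the complex that puts V1 back onto V0. The fourth was Rogdi, of the same complex (edgeR adjusted p = 0.0474), whose call was lost without P0 (0.174), with scaling by total counts (0.157) and with log2(day + 1) (0.0515), and which was not called in the test between ages (edgeR adjusted p = 0.207). Leaving out any 1 of 10 libraries lost it too (0.0545 to 0.106), namely P0 replicates 1 and 3, P4 replicate 3, P8 replicates 1 and 2, P21 replicates 2 and 3, or any replicate of P14. In the sorting of enzymes to the lysosome 2 of 6 rose and 1 fell. Beside both this group and the 10 pump genes, 12% of all genes rose and 14.5% fell. Sort1 (sortilin) rose 5.42-fold, from 2.68 to 10.4 at P0 to 36.4 to 42.0 at P21 (edgeR adjusted p = 8.84e-06), and M6pr, a mannose 6-phosphate receptor, 2.34-fold (edgeR adjusted p = 0.000166). Gnptab, the transferase that starts the mannose 6-phosphate tag, went from 11.0 at P0 to 6.09 at P4 and 3.83 at P21 (edgeR adjusted p = 0.0376), and its slope without P0 was -0.021 (edgeR adjusted p = 0.640). It was also lost on leaving out any 1 of the P0 libraries (0.0684 to 0.119), P4 replicates 1 or 2 (0.0511 and 0.0502), P14 replicate 1 (0.0636) or P21 replicates 2 or 3 (0.0947 and 0.0608).

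Inhibitors of cathepsins were also read. Cst3 (cystatin C), which is secreted, rose 2.67-fold from 481 to 547 at P0 to 1139 to 1578 at P21 (slope 0.069 ± 0.0094, edgeR adjusted p = 2.14e-05), and Cstb (cystatin B), which stays in the cell, 2.65-fold (edgeR adjusted p = 0.00184), so that 2 of 3 tested inhibitors rose. In the Ragulator, the anchor of the growth kinase mTORC1 on the lysosome, 2 of 5 genes rose. For both groups the share of all genes that rose was 12%. Lamtor3 went from 9.85 to 10.7 at P0 to 38.7 to 42.7 at P21 (3.89-fold, edgeR adjusted p = 1.23e-06), and Lamtor5 rose 1.99-fold (edgeR adjusted p = 0.0102), which was lost without P0 (edgeR adjusted p = 0.117) and with scaling by total counts (0.133).

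**Figure D5:**
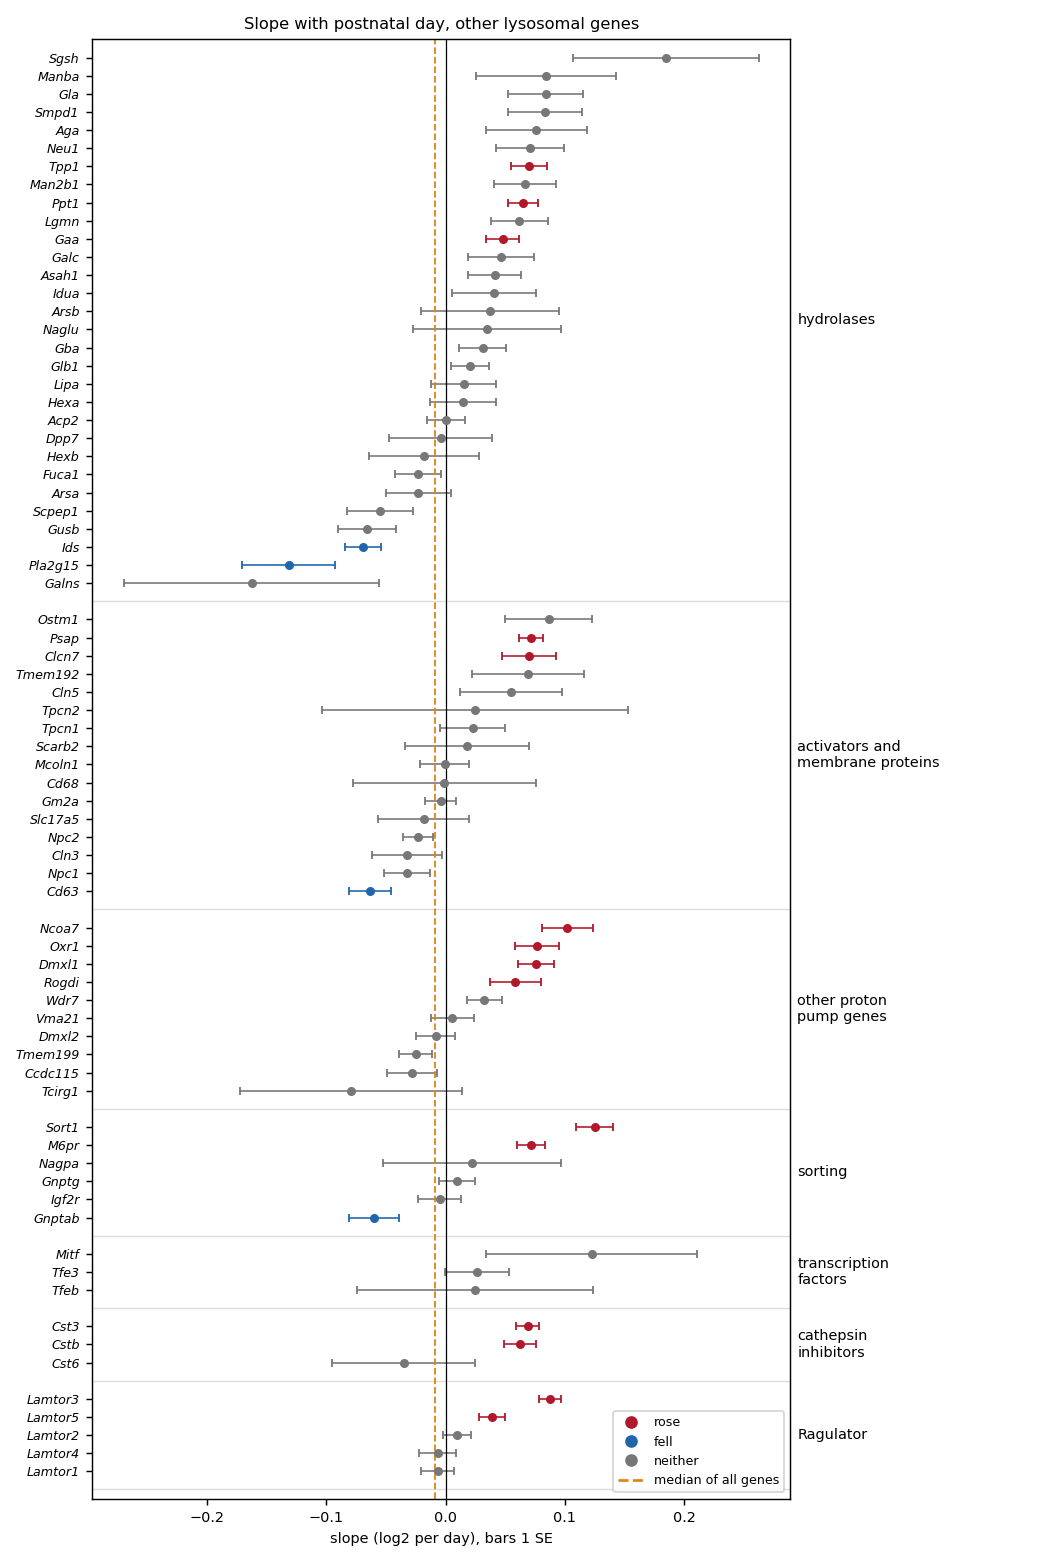
Slope with postnatal day (horizontal axis, log2 per day, bars 1 SE) of 73 of the 74 tested genes of the list of other lysosomal genes, grouped by role. Red genes rose, blue genes fell, grey genes passed neither way, and the dashed line is the median of all genes at -0.0089. The plot has 15 red and 4 blue genes, with Sort1 and Ncoa7 the steepest of the red ones.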

How the data were processed

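The deposited files held whole-number read counts per gene, 1 file per library. Per the labels and the study's methods, the authors made libraries from the captured cells with the SMARTer Ultra Low RNA kit, trimmed reads with Cutadapt 1.2.1, aligned them to GRCm38 with GSNAP and counted uniquely aligned reads with HTSeq 0.5.3p9. Annotation release and strand setting were not given in the sources used here, so the 11 tested members with exons overlapping another gene could share reads with it. The 5 tally lines per file, such as reads outside genes, were left out of library sizes (18.2% to 31.0% of uniquely aligned reads lay outside genes or were ambiguous). GENCODE M21 matched 36723 of 38561 gene IDs and gave symbols, biotypes and exon lengths.

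Libraries were grouped by the time point in their titles. Genes passing edgeR's filterByExpr were fitted with edgeR 4.0.16 (TMM, quasi-likelihood F test, day as a number or time point as a factor, all 15 libraries), and p-values were adjusted by Benjamini-Hochberg. The procedure was tested on simulated data. Alternatives were DESeq2 1.42.0, limma-voom (limma 3.58.1), other scalings, no filter, log2(day + 1), a replicate block, no P0, and each library left out. The test between time points without P0 was chosen after seeing the data. The members and lists were chosen with earlier results of these data known. Named were all called members, the 3 steepest slopes each way per group, all paralogs of a pump subunit, untested members with their counts, and the 3 steepest called genes each way per role in the other list. One gene of the other list is counted but not reported here by name. Rogdi was named outside that rule, after its values were seen. Protein sequences were not used here, and promoter stretches were shown in their place, also chosen with the results known. Counting intervals and floors (3 reads) cover counting error only.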

Additional observations from a re-analysis of the deposited data

How the results depend on the processing

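No called slope changed sign under any alternative, whereas those of Atp6v0b, Atp6v0e, Atp6v1f, Ctsh, Ctsl and Lamp3, which passed neither way, did under at least 1. Over all slopes of named genes and alternatives, 844 kept their call, 53 lost it and 5 gained one. Members falling with day were 5 with total counts only. Members changed from P0 to P4 were 6 with DESeq2, from P8 to P14 4 with DESeq2 and 3 with limma-voom, and from P14 to P21 1 with DESeq2. Other lysosomal genes rising were 25 with limma-voom, and those falling were 2 with limma-voom, 2 with log2(day + 1) and 7 with total counts only. The cause was not tested. With each library left out in turn, 12 to 17 members rose, 2 to 3 fell and 12 to 17 differed between ages; 2 to 4 changed from P0 to P4, 0 to 0 from P4 to P8, 1 to 3 from P8 to P14 and 0 to 0 from P14 to P21; and 14 to 18 other lysosomal genes rose and 1 to 5 fell. The P8 to P14 count was 3 without P0 replicate 1, and 2 without P0 replicate 3 or P4 replicate 1, and the lowest falling count of the other list, 1, came without P21 replicate 2. Of the called members 11 of 14 rising and 2 of 3 falling were called in every such fit. Replicate numbers did not pair the libraries (mean correlation of deviations -0.0035 for equal and 0.0018 for unequal numbers), and with a replicate block 14 members rose, 2 fell (Ctsk was not called) and 17 differed between ages, 4 changed from P0 to P4, and 17 other lysosomal genes rose and 3 fell (Gnptab and Rogdi were not called). Low counts limit Ctsc, Ctsh, Ctsk, Ctss, Lamp3, Tfeb, Mitf and the untested members. The biological coefficient of variation over all genes was 0.756 in the fit with day as a number, which is not the fit behind the steps. With 3 libraries per age, a step that did not pass does not show that 2 ages were alike.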
